A study of Mus musculus with 8 samples.

Results

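Class switching and somatic mutation of antibody genes use a small set of DNA repair and signalling factors, and 7 of their genes were followed here: Ung, Apex1, Msh6, Pms2, Exo1, Trp53bp1 and Batf. They were given by symbol and matched to mouse gene identifiers, and all 7 were among the 15681 genes of the deposited table and among the 12441 that were tested. The measurements are 8 RNA sequencing libraries from mature B lymphocytes that were sorted from mouse spleen, cultured with 20 µg/ml lipopolysaccharide (LPS) and 20 ng/ml interleukin 4 (IL-4), and harvested at 72 h. The mice were aged 8 to 10 weeks. There were 2 libraries of Myc-deficient cells (Myc_KO), 2 of Max-deficient cells (Max_KO), 2 of cells deficient in both genes (DKO) and 2 of heterozygous cells (control). The labels call the controls heterozygous without naming the allele, and name neither the Cre driver nor the mice behind each library. The p-values therefore speak of the spread between these libraries alone, which may be technical. Myc activates transcription as a heterodimer with Max, and Max also pairs with repressors, the Mxd proteins, Mnt and Mga.

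In switching, cytosine in transcribed antibody genes is deaminated to uracil. The glycosylase UNG removes the uracil and the endonuclease APE1, encoded by Apex1, cuts the DNA at the abasic site left behind. Mismatch repair (MSH6 in recognition, then PMS2, then the exonuclease EXO1) works on the same lesions, and 53BP1, encoded by Trp53bp1, protects the broken ends so that they are joined rather than resected. BATF is an AP-1 family factor needed in activated B lymphocytes for switching. LPS with IL-4 is a standard culture for inducing switching.

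The groups are those of the sample titles, which are also the column names of the table. For 2 libraries, DKO replicate 1 (KB32) and Myc_KO replicate 2 (KB44), the description and genotype fields give the other of these 2 genotypes. The levels of the targeted genes were set against the titles, in RPM (estimated reads per 1 M of effective library size). Myc was at 48.3 and 55.7 RPM in Myc_KO, 192 and 176 in Max_KO, 38.7 and 55.3 in DKO, and 111 and 116 in control. Max was at 70.4 and 59.8 RPM in Myc_KO, 16.4 and 15.5 in Max_KO, 28.6 and 31.2 in DKO, and 55 and 54.5 in control. Under the titles no library had a level of Myc or Max against its genotype, whereas under the description fields the Max levels of KB32 and KB44 went against theirs. RNA of the targeted gene was still read in every knock-out library, and the cause was not tested. Below, cells or libraries without Myc or without Max are those of that genotype, not those without its RNA. Where groups from the description fields, or the other 6 libraries alone, changed a call of Ung, Apex1 or an interaction, their values are given too.

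Libraries held 14.88 to 17.91 M estimated reads. Transcripts of mitochondrial DNA made up 2.21 to 2.96% of reads in the knock-out libraries and 5.69 and 4.93% in the control libraries. The markers of the labelled cell type were high: the 6 B cell genes summed to 12303 to 15695 RPM in the knock-out libraries and to 14807 and 15042 in control. Markers of other cell types were read too. The 7 T cell markers summed to 114 to 147 RPM in Myc_KO, 73.1 to 88 in Max_KO, 75.6 to 120 in DKO and 37.3 to 42 in control, with Cd3e at 0 in control replicate 1. The 4 NK markers in the table summed to 42.7 to 72.7 RPM in Myc_KO, 14.6 to 31.6 in Max_KO, 28.1 to 38.6 in DKO and 0.728 to 2.8 in control, with Ncr1 and Klrd1 at 0 in both control libraries. The 4 myeloid markers in the table summed to 19.7 to 29.9 RPM in Myc_KO, 11.7 to 13.8 in Max_KO, 8.79 to 17.7 in DKO and 2.44 to 3.39 in control; Csf1r was at 0 in both Myc_KO libraries, Max_KO replicate 1 and DKO replicate 1. Single genes weighed heavily in these sums. Mean levels in Myc_KO, Max_KO, DKO and control were 103, 66, 83.3 and 36.2 RPM for Lck of the T cell list. They were 51.5, 20.7, 30.2 and 1.64 RPM for Gzma of the NK list. For Adgre1 of the myeloid list they were 21.9, 8.91, 10.4 and 1.28 RPM. For Ighm of the B cell list they were 10179, 7008, 9272 and 10415 RPM. All 7 T cell markers, both tested NK markers and both tested myeloid markers were called higher in Myc_KO. In Max_KO 4 of the 7 T cell markers were, and in DKO 5, with both NK and both myeloid markers in each. Of all genes 24%, 22.4% and 21.9% were called higher in Myc_KO, Max_KO and DKO, and 21.4%, 17.4% and 16.8% lower. The 6 plasma cell markers summed to 953 to 960 RPM in Myc_KO, 574 to 658 in Max_KO, 799 to 1101 in DKO and 1206 to 1259 in control. Of the 5 tested, 1, 2 and 1 were called lower in Myc_KO, Max_KO and DKO and none higher (median log2 changes 0.22, -0.99 and 0.33). Mean levels of Xbp1 were 397, 267 and 396 RPM against 737 in control. Sdc1 was at 11.6, 2.98 and 12.7 RPM against 5.96, Prdm1 at 56.6, 26.8 and 51.1 against 39.1, and Jchain at 270, 36.4 and 199 against 232. The mitochondrial share and these markers move with loss of Myc or Max, and their part in the results was not tested. In bulk RNA a change in the cells present and a change in RNA per cell cannot be told apart.

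Ung and Apex1, the uracil pair, were the only members called between knock-out groups: both were higher in Max_KO and in DKO than in Myc_KO. Their promoters are shown for that reason, and because Myc with Max is known to bind the E-box CACGTG. The windows run from 250 bases before to 50 after the annotated start (RefSeq, GRCm38.p6, 5′ to 3′ on the plus strand). They were searched on both strands for CACGTG, for the related CACGCG and for the E2F motifs TTTCCCGC and TTTGGCGC, and matches are in capitals.
Apex1, chr14:50924699-50924998: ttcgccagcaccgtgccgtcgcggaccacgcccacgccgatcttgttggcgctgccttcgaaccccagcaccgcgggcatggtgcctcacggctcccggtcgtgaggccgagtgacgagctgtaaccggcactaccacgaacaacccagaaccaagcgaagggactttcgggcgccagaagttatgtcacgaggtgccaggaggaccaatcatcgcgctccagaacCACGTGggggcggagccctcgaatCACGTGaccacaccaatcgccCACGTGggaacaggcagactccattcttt
Ung, chr5:114130185-114130484: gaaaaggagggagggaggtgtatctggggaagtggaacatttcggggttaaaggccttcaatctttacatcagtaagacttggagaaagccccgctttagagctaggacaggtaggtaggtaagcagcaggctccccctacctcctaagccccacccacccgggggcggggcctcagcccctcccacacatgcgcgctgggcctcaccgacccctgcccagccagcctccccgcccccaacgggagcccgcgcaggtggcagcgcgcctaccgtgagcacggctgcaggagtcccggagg
The Apex1 window held 3 matches to CACGTG, beginning at positions -24, 0 and 21 relative to the annotated start. Of the 32851 promoter windows of this length in the mouse table, 7.15% held at least 1 CACGTG and 29, or 0.0883%, held 3 or more. The Ung window held no match to any of these motifs, as did those of Pms2, Trp53bp1 and Batf. Msh6 had a match to an E2F motif (1.56% of all windows have one), beginning at position 15. A match describes letters of the window and not binding, and 6 of the 7 members were in the promoter table.

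Ung (ENSMUSG00000029591) lies on chromosome 5 of GRCm38, from base 114130386 to 114139323. Its level was 31.3 and 31.4 RPM in Myc_KO, 74.4 and 72.6 in Max_KO, 75.2 and 60.3 in DKO, and 39.4 and 36.8 in control. All 4 libraries without Max lay above both control libraries, and both Myc_KO libraries lay just below them. Against control, Ung rose 1.93-fold in Max_KO (log2 change 0.95 ± 0.12 SE, limma adjusted p = 0.000729) and 1.77-fold in DKO (0.82 ± 0.12, adjusted p = 0.00137). In Myc_KO its log2 change was -0.28 ± 0.12, with a 95% interval of -0.55 to -0.01 and limma adjusted p = 0.087; it was called lower there after quantile normalization (adjusted p = 0.0389, over 0.0389 to 0.512). The call in Max_KO was kept under 23 of 24 alternative settings and that in DKO under 22. The exceptions were the description fields (adjusted p = 0.0948 in Max_KO, 0.721 in DKO, over ranges of 3.4e-05 to 0.0948 and 2.16e-05 to 0.721) and, in DKO, these fields with a replicate block (0.602).

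Apex1 (ENSMUSG00000035960, chromosome 14, 50924968 to 50927139) was at 75.2 and 81.5 RPM in Myc_KO, 195 and 171 in Max_KO, 178 and 156 in DKO, and 144 and 130 in control. Both Myc_KO libraries lay below control and all 4 libraries without Max lay above it, while Max_KO and DKO overlapped each other. Against control, Apex1 fell 1.75-fold in Myc_KO (log2 change -0.81 ± 0.11 SE, limma adjusted p = 0.000674) and rose 1.33-fold in Max_KO (0.41 ± 0.11, adjusted p = 0.0171). In DKO the log2 change was 0.28 ± 0.11, with limma adjusted p = 0.0686. The call in Max_KO was lost without Max_KO replicate 1 (log2 change 0.32, adjusted p = 0.0867) and without control replicate 2 (0.34, 0.113), over a range of 0.00138 to 0.439. With groups from the description fields it was lost as well (0.439), as was the call in Myc_KO (adjusted p = 0.649, over a range of 1.29e-05 to 0.649).

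Exons of Apex1, 1422 bases in all, overlap single exons of Pip4p1 on the opposite strand by up to 684 bases. The total shared length was not computed, and the strand setting of the counting is not given in the sources used here. Pip4p1 was at 103 and 127 RPM in Myc_KO, 110 and 131 in Max_KO, 108 and 113 in DKO, and 93.4 and 101 in control. Its log2 change was 0.23, 0.30 and 0.19 in Myc_KO, Max_KO and DKO (limma adjusted p = 0.164, 0.0891 and 0.265), and its log2 difference was 0.07 for Max_KO against Myc_KO and -0.04 for DKO against Myc_KO (adjusted p = 0.832 and 0.93).

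**Figure D1:**
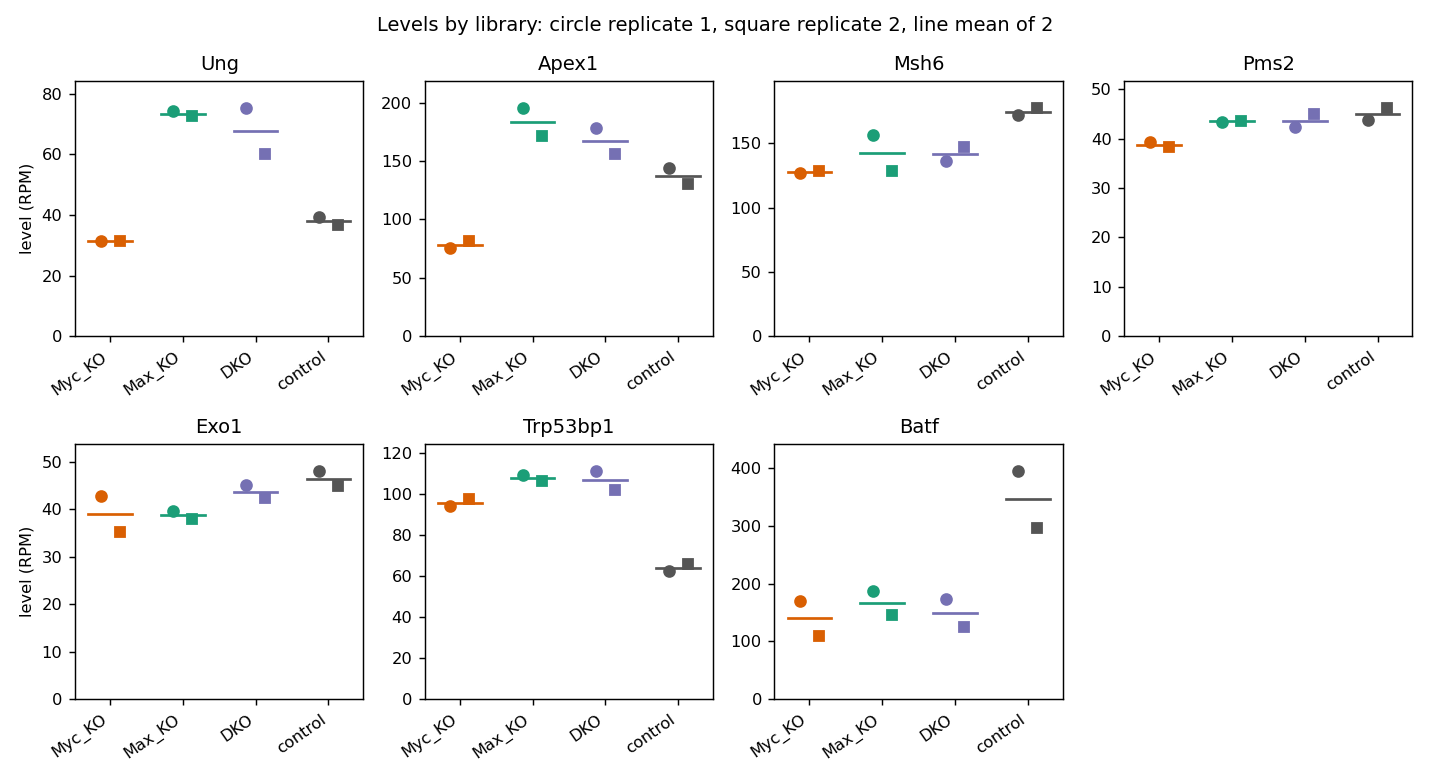
Levels in RPM (vertical axes, each starting at 0) of the 7 members in each library, by group along the horizontal axis; circles are replicate 1, squares replicate 2 and lines the mean of 2 libraries. Ung at 60.3 to 75.2 RPM in the 4 libraries of Max_KO and DKO lies above control at 36.8 and 39.4, while Trp53bp1 is higher and Batf is lower in all 6 knock-out libraries than in control.

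DKO against Myc_KO asks what differs when Max is missing too in cells without Myc. Few genes differed in this comparison: 0.458% of all genes tested were called by limma, 0.418% as higher. Ung and Apex1 were both among them, at 75.2 and 60.3 RPM in DKO against 31.3 and 31.4 in Myc_KO for Ung (log2 difference 1.10 ± 0.12 SE, adjusted p = 0.0119) and at 178 and 156 RPM in DKO against 75.2 and 81.5 in Myc_KO for Apex1 (1.09 ± 0.11, adjusted p = 0.00797). By p-value Apex1 ranked 10 and Ung 13 of 12441 genes. The other 5 members differed by 0.10 to 0.17 on the log2 scale and none was called (adjusted p = 0.51 to 0.921). Max_KO against Myc_KO gave the same division, with 4.13% of all genes called: Ung was 2.34-fold higher (log2 difference 1.23 ± 0.12, limma adjusted p = 0.00284) and Apex1 2.33-fold higher (1.22 ± 0.11, adjusted p = 0.00198), and none of the other 5 members was called. Both calls were kept in the 6 undisputed libraries (adjusted p = 0.00866 each). With groups from the description fields they were lost, at log2 differences of 0.60 for Ung (adjusted p = 0.592, over 3.66e-05 to 0.592) and 0.66 for Apex1 (0.56, over 4.82e-06 to 0.56). These comparisons share the Myc_KO libraries.

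The calls of DKO against Myc_KO rest on 4 libraries, and for Ung the log2 difference was 0.94 without DKO replicate 1 (limma adjusted p = 0.0673) and the call was also lost without Myc_KO replicate 1 (0.0585), control replicate 1 (0.0566) or control replicate 2 (0.0565). For Apex1 it was lost without DKO replicate 1 (0.0673) and without Myc_KO replicate 1 (0.0508). Without a trend in the variance both were lost (0.0753 each), and with only the groups compared Ung was (0.0625). In the 6 libraries with undisputed labels, which leave 1 library of DKO and 1 of Myc_KO, the adjusted p was 0.0762 for Ung and 0.0649 for Apex1. With groups from the description fields each of these groups would hold 1 library with low and 1 with high Ung and Apex1, and the log2 differences were -0.16 and -0.04 (adjusted p = 0.916 and 0.981, over ranges of 0.000139 to 0.916 and 4.96e-05 to 0.981).

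DKO against Max_KO sets loss of Myc in cells that already lack Max, and none of the 7 members was called. Max RNA itself was not level between these groups: it was higher in DKO by 0.91 ± 0.12 SE on the log2 scale, not called (limma adjusted p = 0.0968). Of all genes, 0.0402% were called by limma, 0.0322% as higher and 0.00804% as lower. Ung was at 75.2 and 60.3 RPM in DKO and 74.4 and 72.6 in Max_KO, a log2 difference of -0.13 with a 95% interval of -0.40 to 0.15. Apex1 differed by -0.13, with an interval of -0.38 to 0.12. The log2 change of Apex1 with Myc loss was thus -0.13 in cells without Max and -0.81 in cells with Max, and the difference of these, the interaction, was 0.68 ± 0.15 (limma adjusted p = 0.014). Among all genes 27.4% had a called interaction, 12.4% above 0 and 15% below, and among the members Apex1 and Batf had one above 0 and Trp53bp1 one below. The Apex1 interaction was 0.60 without control replicate 1 (adjusted p = 0.0667), 0.64 in the 6 undisputed libraries (0.0515) and -0.45 with groups from the description fields (0.595, over a range of 0.00386 to 0.595). For Ung the interaction was 0.155 ± 0.17, with an interval of -0.23 to 0.54 and adjusted p = 0.531.

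**Figure D2:**
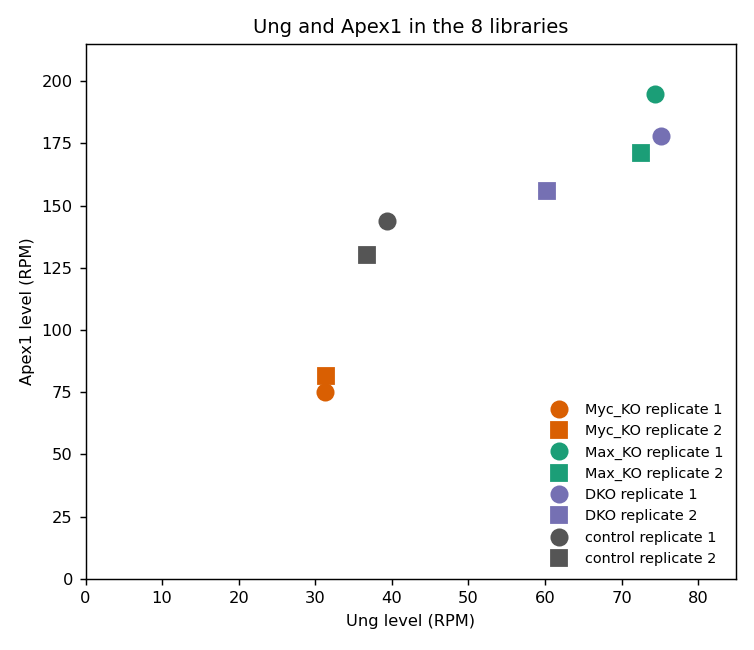
Level of Apex1 (vertical axis, RPM) against level of Ung (horizontal axis, RPM) in the 8 libraries, coloured by group and with replicate 1 as circles and replicate 2 as squares. Myc_KO lies at 75.2 to 81.5 RPM of Apex1, control at 130 and 144, and the libraries of Max_KO and DKO at 156 to 195 with Ung above 60.

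Each title holds a number, in the 30s or in the 40s, and the labels do not call these batches. Replicate 1 of each knock-out group has a number in the 30s and replicate 2 one in the 40s, and both controls are in the 30s. The difference between the 40s and the 30s library correlated across 12441 genes between knock-out groups, with Pearson r of 0.31 to 0.37. Within the 30s alone, the log2 change of Ung was -0.28 in Myc_KO, 0.97 in Max_KO and 0.98 in DKO against control, and that of Apex1 was -0.87, 0.51 and 0.38. This fit holds 1 library of each knock-out group, so its spread comes from both controls alone and only log2 changes are given. With the number series as a covariate in all 8 libraries, Apex1 was called higher in DKO (0.33, limma adjusted p = 0.0323). Over the alternatives that adjusted p reached up to 0.594. No control has a number in the 40s, so that the comparison with control cannot be made there. In the 30s alone, Ung and Apex1 were 1.27 and 1.25 higher on the log2 scale in DKO than in Myc_KO.

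Batf (ENSMUSG00000034266, chromosome 12, 85686669 to 85709087) fell in each knock-out group. It was at 170 and 110 RPM in Myc_KO, 188 and 145 in Max_KO, 173 and 124 in DKO, and 395 and 297 in control. All 6 knock-out libraries lay below both controls, although the 2 libraries of a group differed by 0.38 to 0.62 on the log2 scale, against a median of 0.13 to 0.19 for all genes. In each knock-out group the library with a number in the 40s was the lower. The fall was 2.50-fold in Myc_KO, 2.08-fold in Max_KO and 2.34-fold in DKO (log2 changes -1.32, -1.05 and -1.23, SE 0.25 each; limma adjusted p = 0.00328, 0.011 and 0.00584). Within the 30s the log2 changes were -1.01, -0.86 and -0.99. In Max_KO the call was lost without Max_KO replicate 2 (log2 change -0.86, adjusted p = 0.0621) and without control replicate 1 (-0.85, 0.0915), over a range of 0.000262 to 0.0915, and in DKO without control replicate 1 (-1.02, 0.0562, over 7.44e-05 to 0.0562). Its interaction of 1.15 ± 0.35 (limma adjusted p = 0.0419) lost its call under 11 of 23 alternatives, among them leaving out Myc_KO replicate 2 (adjusted p = 0.101), Max_KO replicate 2 (0.112), DKO replicate 1 (0.118), control replicate 1 (0.154) or control replicate 2 (0.0583), the 6 undisputed libraries (0.197) and the description fields (0.151), over a range of 0.00718 to 0.242.

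Trp53bp1 (ENSMUSG00000043909, chromosome 2, 121193281 to 121271407) was the only member to rise in all 3 knock-out groups. It was at 93.9 and 97.4 RPM in Myc_KO, 109 and 106 in Max_KO, 111 and 102 in DKO, and 62.3 and 65.6 in control, with no overlap between knock-out and control libraries. The rise was 1.5-fold in Myc_KO, 1.68-fold in Max_KO and 1.66-fold in DKO (log2 changes 0.58, 0.74 and 0.73, SE 0.08 each; limma adjusted p = 0.000966, 0.000477 and 0.000496), and these calls were kept under all 24 alternatives. Its interaction was -0.59 ± 0.12 (limma adjusted p = 0.00888). Its exons overlap those of Tubgcp4 on the other strand by up to 1873 bases, and Tubgcp4 had log2 changes of 0.04, 0.09 and 0.05 in Myc_KO, Max_KO and DKO, none of them called.

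The mismatch repair members had smaller changes. Msh6 (ENSMUSG00000005370, chromosome 17, 87975062 to 87990892), which encodes a mismatch-binding subunit, was at 127 and 128 RPM in Myc_KO, 156 and 128 in Max_KO, 136 and 147 in DKO, and 172 and 177 in control. All knock-out libraries were below both controls. The change was called in Myc_KO (1.36-fold lower, log2 change -0.45 ± 0.10 SE, limma adjusted p = 0.00883) and in Max_KO (1.23-fold lower, -0.30 ± 0.10, adjusted p = 0.0469), and not in DKO (-0.30 ± 0.10, adjusted p = 0.0507). The Myc_KO call was lost without control replicate 2 (adjusted p = 0.0555, over 0.00156 to 0.0555). The Max_KO call was lost under 15 of 24 alternatives, among them leaving out any library but Max_KO replicate 1, with log2 changes of -0.32 to -0.16 and adjusted p of 0.0588 to 0.275 without those libraries. The DKO change was called under 12 of 24. The exons of Msh6 overlap those of Fbxo11 on the other strand by up to 34 bases. Fbxo11 was called higher in Myc_KO (log2 change 0.70, limma adjusted p = 0.00929) and not in Max_KO (0.17) or DKO (0.29).

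Pms2 (ENSMUSG00000079109, chromosome 5, 143909964 to 143933968), a subunit of the mismatch repair endonuclease, was at 39.3 and 38.2 RPM in Myc_KO, 43.4 and 43.6 in Max_KO, 42.4 and 44.9 in DKO, and 43.7 and 46.1 in control. DKO overlapped control, and the Myc_KO and Max_KO libraries lay below both control libraries, Max_KO only just. No change was called, with log2 changes of -0.21, -0.04 and -0.04 in Myc_KO, Max_KO and DKO and 95% intervals of -0.43 to 0.01, -0.26 to 0.17 and -0.26 to 0.18. Exo1 (ENSMUSG00000039748, chromosome 1, 175880581 to 175913489) was at 42.7 and 35.2 RPM in Myc_KO, 39.7 and 37.9 in Max_KO, 45 and 42.4 in DKO, and 48 and 44.8 in control. Its log2 changes were -0.26, -0.26 and -0.085 (SE 0.12 each), of which none was called (limma adjusted p = 0.109, 0.12 and 0.601). The lower levels in Myc_KO and Max_KO did not overlap control, while DKO replicate 1 did. Without Myc_KO replicate 1 the Exo1 change in Myc_KO was -0.40 (adjusted p = 0.0425, over 0.0383 to 0.61). Quantile normalization called Pms2 and Exo1 lower in Myc_KO (adjusted p = 0.0356, over 0.0356 to 0.614, and 0.0383) and Exo1 lower in Max_KO (0.0372, over 0.0372 to 0.38).

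**Figure D3:**
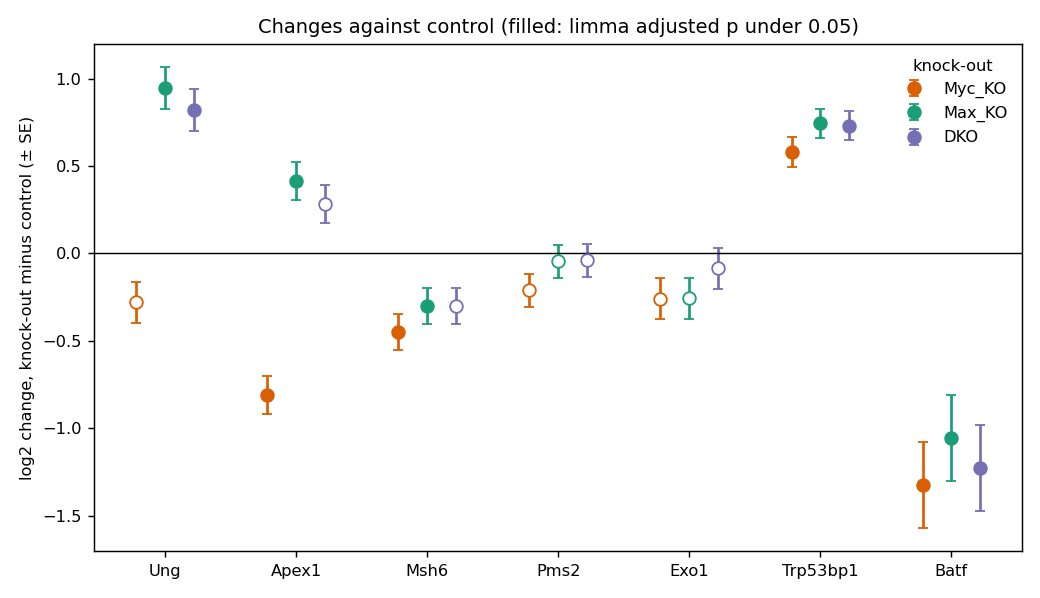
Log2 change of each member in Myc_KO, Max_KO and DKO against control (vertical axis; points are limma estimates, bars ± SE, filled where the adjusted p is under 0.05). Trp53bp1 is above 0 and Batf below 0 in each group, whereas Apex1 is at -0.81 in Myc_KO and at 0.41 and 0.28 in Max_KO and DKO.

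By count, Trp53bp1 was the 1 member of 7 called higher in Myc_KO against control and Msh6, Apex1 and Batf were the 3 called lower, where 45.5% of all genes were called, 24% as higher and 21.4% as lower. Max_KO had 3 members higher (Ung, Trp53bp1 and Apex1) and 2 lower (Msh6 and Batf), where 39.8% of all genes were called, 22.4% as higher and 17.4% as lower. DKO had 2 members higher (Ung and Trp53bp1) and 1 lower (Batf), where 38.7% of all genes were called, 21.9% as higher and 16.8% as lower. The median log2 change of the members was -0.28 in Myc_KO, -0.04 in Max_KO and -0.04 in DKO, against 0.00, 0.02 and 0.02 over all genes tested. With so wide a background these counts say nothing about the set, and the 3 comparisons share their controls. Scaling to equal totals moved the median of all genes to 0.15, 0.13 and 0.15. It also moved the share of called genes that were higher to 66.5%, 66.7% and 68.9%, where it was 52.9%, 56.2% and 56.6% on the deposited scale, and Apex1 was then called in DKO too (0.41, adjusted p = 0.0151).

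Levels between genes were compared per kilobase of exon, taking the union of all annotated exons of a gene. This union has 1406 bases for Batf, 1422 for Apex1, 4346 for Msh6 and 5468 for Ung. It has 8117 for Pms2, 8422 for Exo1 and 14164 for Trp53bp1. The union can be longer than the transcripts present, so the order and gaps between genes depend on the annotation, which the SD does not cover. In control cells Batf was highest at 246 ± 49.1 RPM per kb (SD, n = 2), followed by Apex1 at 96.5 ± 7.04 and Msh6 at 40.1 ± 0.809. Ung (6.97 ± 0.335), Pms2 (5.53 ± 0.213), Exo1 (5.51 ± 0.265) and Trp53bp1 (4.52 ± 0.164) came far below, and Pms2 and Exo1 did not differ beyond their spread. In Max_KO Apex1 (129 ± 12.3) and Batf (118 ± 21.9) did not differ beyond their spread, and Ung at 13.4 ± 0.23 stood well above Trp53bp1 (7.57 ± 0.134).

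The wider machinery was read from 6 lists with 90 genes in all, of which 88 were tested. Myc_KO had 23 of the 88 higher than control and 23 lower, Max_KO had 25 higher and 18 lower, and DKO had 25 higher and 18 lower. These counts lie near the shares of all genes given above (24% higher and 21.4% lower in Myc_KO, 22.4% and 17.4% in Max_KO, 21.9% and 16.8% in DKO). The same shares are the background for the counts of each list below. Median log2 changes were -0.02 in Myc_KO, 0.07 in Max_KO and 0.09 in DKO. Apex1 and Ung were the only 2 of the 88 called in DKO against Myc_KO. In Max_KO against Myc_KO the calls were Apex1, Ung, Junb and Nfkb1, each of them higher in Max_KO.

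The list of uracil and base excision repair has 14 genes. Called higher against control were 3 in Myc_KO, 4 in Max_KO and 3 in DKO, and called lower were 3, 2 and 2, with median log2 changes of -0.14, -0.03 and 0.10. Xrcc1, the scaffold for ligation of repaired strands, had the lowest change of the list in each group. Its level was 66 ± 2.28 RPM in Myc_KO, 77.7 ± 11.6 in Max_KO and 80.2 ± 6.94 in DKO against 133 ± 6.2 in control (SD, n = 2 each; limma adjusted p = 0.000348, 0.00163 and 0.00219). Its partner, the ligase gene Lig3, rose in each group, to 45.9 ± 5.86, 50.6 ± 1.65 and 52.4 ± 2.32 RPM against 28.1 ± 2.81 in control.

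Mismatch repair and its polymerase came to 10 genes, of which 2 were higher in Myc_KO, 1 in Max_KO and 2 in DKO, and Msh6 alone was lower, in Myc_KO and Max_KO (medians 0.12, 0.11 and 0.13). Polh, the polymerase that copies past damaged bases and mutates A and T sites, rose in each group, to 47 ± 4.5, 47.8 ± 5.76 and 52.1 ± 5.86 RPM against 33.2 ± 1.48 in control. Mlh3, a further mismatch repair gene, had the highest called change in Myc_KO, at 22.5 ± 2.06 RPM against 15.8 ± 3.57 in control (limma adjusted p = 0.0359). Its level was close to that in Max_KO (21.5 ± 0.989 RPM) and DKO (21.4 ± 0.833), where it was not called.

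The 53BP1 axis and break signalling had 17 tested genes, and the same 6 were higher in each group: Atm, Mdc1, Rif1, Rnf168, Shld2 and Trp53bp1. Of all genes 24%, 22.4% and 21.9% were higher in Myc_KO, Max_KO and DKO, and these comparisons share both controls. Lower were 5 in Myc_KO, 4 in Max_KO and 3 in DKO (medians 0.11, 0.18 and 0.20). These were H2afx, Mad2l2 and Pagr1a in each group, Rnf8 in Myc_KO and Max_KO, and Dynll1 in Myc_KO. Atm, the kinase that signals breaks, was at 388 ± 22.6 RPM in Myc_KO, 322 ± 96.3 in Max_KO and 364 ± 9.15 in DKO against 59.6 ± 1.94 in control (log2 changes 2.70, 2.40 and 2.61; limma adjusted p = 4.71e-05, 0.000171 and 0.000159). RIF1 and SHLD2 act downstream of 53BP1 in protecting ends, and MDC1 and RNF168 act upstream in bringing it to chromatin. These are roles of genes called higher, and roles of the genes called lower are not given. With H2afx, Mad2l2 and Pagr1a lower in each group, the list moved both ways. Pagr1a, a partner of PTIP, had the lowest called change, at 4.59 ± 1.54, 4.78 ± 2.89 and 5.56 ± 1.02 RPM against 15 ± 4.94 in control.

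End joining had 10 genes, of which 3 were higher in each group and 2 in Myc_KO, 1 in Max_KO and 2 in DKO were lower (medians 0.14, 0.08 and 0.09). Xrcc5, which encodes the larger Ku subunit, was at 25.4 ± 0.96, 21.7 ± 2.88 and 27.3 ± 0.575 RPM against 12.8 ± 0.154 in control. Lig4, the ligase of this pathway, was at 12.8 ± 3, 7.38 ± 0.147 and 9.93 ± 1 RPM against 5.47 ± 0.16 in control. It was called higher in Myc_KO and DKO. Nhej1, the gene of the ligation factor XLF, was at 2.6 ± 0.257, 2.12 ± 0.245 and 2.3 ± 0.696 RPM against 5.25 ± 0.0333.

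Deamination and its cofactors had 15 genes, of which 3 in Myc_KO, 4 in Max_KO and 4 in DKO were higher and the same 5 in each group were lower (medians -0.23, -0.12 and -0.07). The kinase gene Gsk3b had the highest called change, at 76.9 ± 4.46, 65.3 ± 6.24 and 67.5 ± 8.14 RPM against 46.1 ± 1.59 in control.

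The regulators of switching had 22 tested genes, of which 6, 7 and 7 were higher and 7, 5 and 6 lower in Myc_KO, Max_KO and DKO (medians -0.02, 0.12 and 0.11). Pax5, a B cell identity factor, was at 1224 ± 223, 1193 ± 302 and 1158 ± 129 RPM against 379 ± 4.67 in control. Bach2, a repressor of plasma cell differentiation, was at 203 ± 61.3, 200 ± 38.1 and 200 ± 31.6 RPM against 63.5 ± 5.9. The AP-1 genes Junb and Fosl2 were called lower in each group, as was Batf. Junb, which encodes a partner of BATF, was at 122 ± 23.7, 197 ± 22.5 and 168 ± 11.3 RPM against 349 ± 13.5 in control, and Fosl2 at 1.69 ± 0.57, 3.17 ± 2.51 and 2.69 ± 0.153 RPM against 13.1 ± 0.156.

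**Figure D4:**
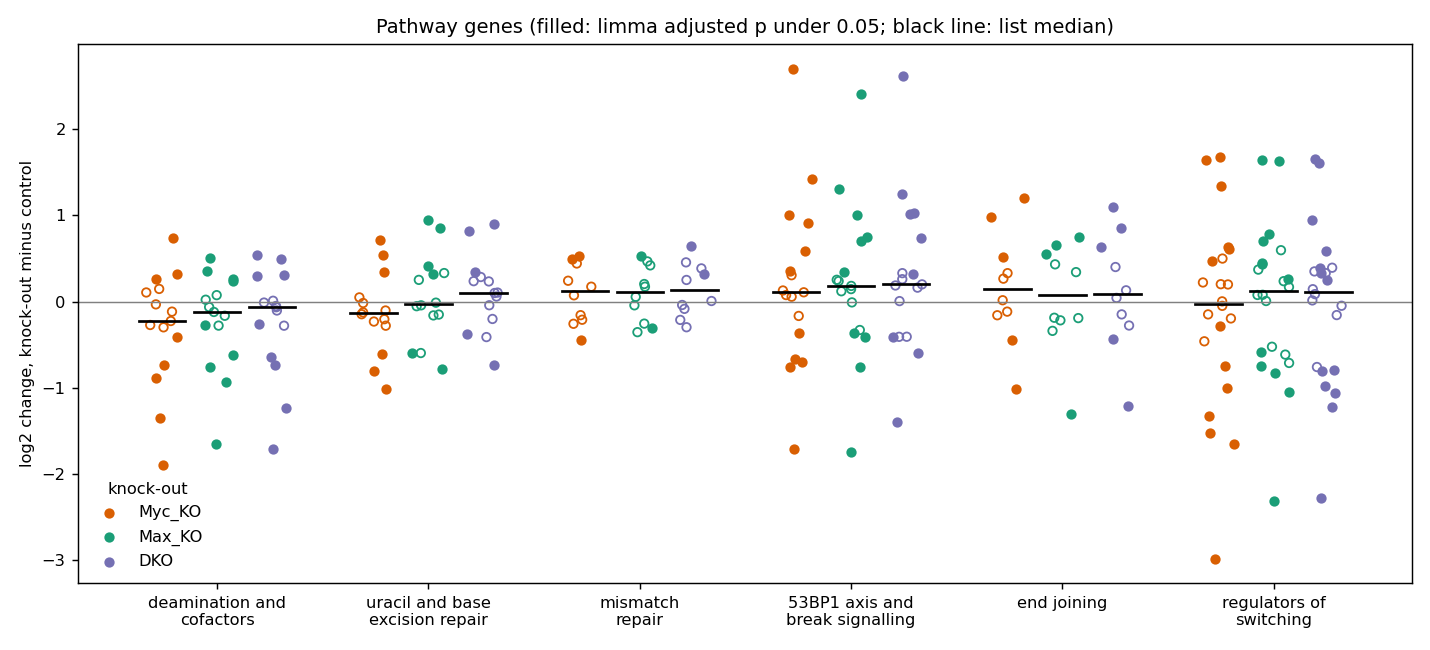
Log2 change against control (vertical axis) of each tested gene of the 6 pathway lists (horizontal axis) in Myc_KO, Max_KO and DKO; filled points have a limma adjusted p under 0.05 and black lines are list medians. Medians lie between -0.23 and 0.20, with Atm highest at 2.70 in Myc_KO and Fosl2 lowest at -2.98 in Myc_KO.

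Many repair genes are also transcribed more in cycling cells, so a list of 17 S phase and proliferation genes was read beside them. Its summed level was 5004 to 5349 RPM in Myc_KO, 5487 to 5587 in Max_KO, 5817 to 5848 in DKO and 4973 to 5319 in control. Mki67 and Top2a, which are not confined to S phase, are in this sum. Mki67 was at 1045 ± 58.8, 1000 ± 34.3 and 1019 ± 115 RPM against 986 ± 60.7 in control. Top2a was at 873 ± 88.9, 993 ± 10.1 and 1000 ± 17.1 RPM against 847 ± 26.6. The groups without Max were above Myc_KO and control, as were Ung and Apex1, and the part of cycling in the levels of Ung and Apex1 was not tested. By gene, 2 of the 17 were higher in Myc_KO, 3 in Max_KO and 7 in DKO, and 3, 2 and 2 were lower (median log2 changes -0.08, 0.08 and 0.18). Of all genes 24%, 22.4% and 21.9% were higher and 21.4%, 17.4% and 16.8% lower. Mcm4, a helicase subunit, was at 270 ± 1.33, 271 ± 1.24 and 305 ± 10.1 RPM against 210 ± 6.83 in control, and Tk1, thymidine kinase, at 94.7 ± 4.1, 125 ± 4.48 and 117 ± 6.11 RPM against 183 ± 0.129. Ccne2, a cyclin of S phase entry, was at 25.5 ± 0.94, 37.7 ± 1.71 and 36.2 ± 0.817 RPM against 28.3 ± 1.23, called higher in Max_KO and DKO.

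Across the 8 libraries, each member was compared with the other 87 tested genes of the lists by Pearson correlation of log2 levels, as a description over libraries that share groups. Ung was most like Apex1 (0.893) and Parp1 (0.882), both of base excision repair. Apex1 was most like Nfkb1 (0.933) and Ung (0.893). Trp53bp1 was most like Mdc1 (0.988) and Lig3 (0.97), Batf like Xrcc1 (0.943) and Tcf3 (0.941), Msh6 like Fosl2 (0.964) and Xrcc1 (0.928), Exo1 like Rnf8 (0.913) and Fen1 (0.9), and Pms2 like Maff (0.815) and Junb (0.772).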

How the data were processed

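The authors deposited log2 values for 15681 genes in 8 libraries of total RNA. The values have the form log2 of (estimated reads plus 0.5) per 1 M of an effective library size. The submitters' processing notes list CASAVA 1.8, cutadapt, RSEM 1.2.3 and build GRCm38. The sources used here do not say how these were run, which annotation and strand setting were used, or which tool made the log2 step. RSEM splits reads of near-identical genes by estimate.

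Taking the lowest value of a library as 0 reads gave estimated reads in steps of 0.01. Since 70.5% of values came out whole, no count test was run. Levels are these reads in RPM of the effective size, with SD over 2 libraries. Identifiers were matched to GENCODE vM21 (15622 genes). The filter kept genes that reached 1 RPM in 2 libraries or more. limma 3.58.1 in R 4.3.3 fitted 1 model of 4 groups with a mean-variance trend (residual degrees of freedom 4, prior 4.2). P-values are two-sided and Benjamini-Hochberg adjusted over 12441 genes, with a threshold of 0.05. The fit was checked on data with known changes. Python 3.11.15 with pandas 2.3.3 and matplotlib 3.10.9 made summaries and figures.

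The members, lists and tests were chosen with earlier results of these data known. Genes named by rule were the members, Myc and Max, the called gene with the highest and lowest change of each list in each knock-out (at least 5 RPM in 1 group), and the 2 list genes most like each member. Rif1, Rnf168, Shld2, H2afx, Mad2l2, Rnf8, Dynll1, Jun, Jund, Mki67, Top2a and overlapping genes were added after values were seen. So were the levels of single cell type markers and values of a named gene in further groups. Not every list gene this selects is reported here. The 24 alternatives changed the filter, pseudocount, scaling, variance model, samples fitted, group labels, replicate block or number series, or left out 1 library.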

Additional observations from a re-analysis of the deposited data

Results flagged for a closer look

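For 3 of the 7 members the log2 change with Myc loss differed between cells without Max (DKO against Max_KO) and cells with Max (Myc_KO against control), by the interaction term of the limma fit. In Trp53bp1 the change was -0.01 without Max and 0.58 with Max, a difference of -0.59 (adjusted p = 0.00888). In Apex1 it was -0.13 without Max and -0.81 with Max, a difference of 0.68 (adjusted p = 0.014). In Batf it was -0.17 without Max and -1.32 with Max, a difference of 1.15 (adjusted p = 0.0419). The call was lost under 11 of 23 alternatives for Batf (adjusted p from 0.00718 to 0.242), 5 for Apex1 (0.00386 to 0.595, with the sign changed in 2) and 1 for Trp53bp1 (0.00398 to 0.0582). Among all genes tested 27.4% had such a difference. Max RNA was 0.91 higher on the log2 scale in DKO than in Max_KO, so the groups without Max were not level in it.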

How the results depend on the processing

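Over the alternatives, 701 gene values kept direction and side of the threshold, 60 lost their call, 27 gained one and 21 changed sign. With groups from the description fields, with or without a replicate block, the log2 value changed sign for Ung in Myc_KO against control (0.35), Apex1 in DKO against control (-0.28), Ung and Apex1 in DKO against Myc_KO (-0.16 and -0.037) and the interactions of Ung (-1.1) and Apex1 (-0.45). Scaling to equal totals gave 0.062 for Pms2 in Max_KO, and 0.082 for Pms2 and 0.036 for Exo1 in DKO, against control. The 6 undisputed libraries gave 0.0016 for Pms2 in DKO against control and -0.00088 for the Ung interaction. With 1 library left out these ranged over -0.081 to 0.0016 and -0.0043 to 0.31, changing sign without DKO replicate 1. Ung in DKO against Max_KO was 0.016 in the 30s alone and ranged over -0.28 to 0.033 with 1 library left out, changing sign without DKO replicate 2. The causes were not tested.

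Fits in the 30s alone hold 1 library of each knock-out group, so their counts rest on the spread between both controls. Max_KO against Myc_KO called 514 genes. It called 13 with the description fields, 123 with a replicate block, 44 with both, 1303 when the number series was fitted, 1650 in the 30s alone, 63 with only the groups compared, 135 without a variance trend and 97 to 530 with 1 library left out. DKO against Myc_KO called 57. Under the same settings it called 0, 1, 0, 291, 544, 33, 9 and 9 to 114, and 26 in the undisputed libraries. DKO against Max_KO called 5. It called 26, 3, 87, 31, 305, 0, 0 and 3 to 24, with 24 in the undisputed libraries, 3 with robust variances and 1 with voom weights. The interaction was called for 3413 genes, 1293 with the replicate block and 1698 to 3323 with 1 library left out. Against control, leaving out 1 library gave 3390 to 5599 calls in Myc_KO, 2682 to 5021 in Max_KO and 2645 to 4925 in DKO, the lowest each time without control replicate 1.

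Replicate numbers of the description fields did not pair libraries: deviations of same-numbered libraries correlated at -0.11 to 0.26 over 12441 genes, and the labels tie no number to a litter or day. With a replicate block under the titles, DKO against Myc_KO was 1.04 for Ung (adjusted p = 0.36) and 0.92 for Apex1 (0.243), and none of the 7 members had a called interaction: 0.51 for Apex1 (0.098), 0.76 for Batf (0.242) and -0.58 for Trp53bp1 (0.0582). Depth was 14.88 to 17.91 M reads a library, and with 2 libraries a group a change that was not called is not shown to be absent.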
